A study of Mus musculus with 7 samples.

Results

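The germinal centre B cell genes described here are 8 genes chosen by name, Bcl6, Fas, S1pr2, Gcsam, Rgs13, Mybl1, Nuggc and Mef2b, out of 55414 genes counted in mouse spleen. All 8 were found in the count table by their Ensembl IDs, and all 8 passed the filter on low counts that left 16089 genes for testing. Spleens of Fpr2KO mice, which lack the formyl peptide receptor gene Fpr2 (n = 4 libraries), were set against spleens of wild-type (WT) mice (n = 3 libraries), whose genotype is given as C57BL/6N. The sources used here do not give age, sex, treatment, immunisation or the background strain of the Fpr2KO mice. Polyadenylated RNA of whole spleen was sequenced, so fewer cells of a type and less RNA per cell cannot be told apart.

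A germinal centre forms inside a B cell follicle of the spleen or a lymph node when B cells that have met antigen divide, mutate their antibody genes and compete for help from follicular helper T cells. BCL6 is the repressor that holds B cells in this state, and MEF2B is a transcription factor that drives Bcl6. The receptor S1PR2 keeps the cells in the centre of the follicle, FAS is a death receptor on their surface, and the products of Gcsam, Rgs13, Nuggc and Mybl1 are typical of these cells. Bcl6 and Fas are also made by other spleen cells, among them T cells and myeloid cells.

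The targeted gene followed the labels. Fpr2, a receptor of myeloid cells for formylated peptides, had 0 reads in all 4 Fpr2KO libraries and 537, 479 and 477 reads in the WT libraries (edgeR adjusted p = 2.27e-05; two-sided exact permutation p = 0.0286, which is as low as 4 against 3 libraries can reach). Libraries held between 14968605 and 18692809 counts. Markers of tissues beside the spleen stood out in single libraries. The summed level of 15 pancreatic acinar genes was 974 CPM (counts scaled to a common library total) in Fpr2KO replicate 1 and 555 in replicate 2, and at most 49.1 in the other 5 libraries. Of those 49.1 CPM, in WT replicate 2, Cela1 alone made up 45.3. The summed level of 10 fat cell genes was 87.1 CPM in WT replicate 3 and at most 50.8 elsewhere. Pparg of this list had 21.1 to 29.4 CPM in every library. Cfd had 13.3 CPM and Car3 18 CPM in WT replicate 3, against at most 1.45 and 2.15 CPM elsewhere.

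The stretches just before the RefSeq start sites show how the genes differ in their letters. RefSeq (GRCm38.p6) held such a stretch for 6 of the 8 genes, with a pair of start sites for Bcl6, giving 7 windows of 250 bases. The window of the inner Bcl6 start and that of Mef2b lie inside the GENCODE gene models whose positions are given with the values, and hold 0 exon bases. The Gcsam window holds 60 exon bases of its gene model and is not shown. They were searched on both strands for TTCNNNGAA, a core shared by BCL6 and STAT sites, for the MEF2 core, for the octamer ATGCAAAT that B cell octamer factors bind, and for TAACNG, the MYB core. The sequences below are of Bcl6 and Fas, the genes with matches to the BCL6 and STAT core, and of Mef2b and Rgs13, a pair without one. Capitals mark the motif matches.
Bcl6, inner start site, chr16:23981284-23981533, minus strand: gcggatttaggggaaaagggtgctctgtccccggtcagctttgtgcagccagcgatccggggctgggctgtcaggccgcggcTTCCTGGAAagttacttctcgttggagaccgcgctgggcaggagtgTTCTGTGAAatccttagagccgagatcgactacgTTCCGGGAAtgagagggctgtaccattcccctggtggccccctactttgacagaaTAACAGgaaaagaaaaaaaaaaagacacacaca
Fas, chr19:34290409-34290658, plus strand: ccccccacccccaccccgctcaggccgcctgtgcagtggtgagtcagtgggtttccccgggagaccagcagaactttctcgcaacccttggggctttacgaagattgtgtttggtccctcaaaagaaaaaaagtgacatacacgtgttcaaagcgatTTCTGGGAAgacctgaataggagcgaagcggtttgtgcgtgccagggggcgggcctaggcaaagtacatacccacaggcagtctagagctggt
Mef2b, start site inside the gene model, chr8:70152511-70152760, plus strand: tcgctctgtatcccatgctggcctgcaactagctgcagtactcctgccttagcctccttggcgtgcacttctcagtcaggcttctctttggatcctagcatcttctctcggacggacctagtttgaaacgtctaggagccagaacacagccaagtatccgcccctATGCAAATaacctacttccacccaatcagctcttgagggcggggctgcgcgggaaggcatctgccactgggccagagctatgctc
Rgs13, chr1:144177373-144177622, minus strand: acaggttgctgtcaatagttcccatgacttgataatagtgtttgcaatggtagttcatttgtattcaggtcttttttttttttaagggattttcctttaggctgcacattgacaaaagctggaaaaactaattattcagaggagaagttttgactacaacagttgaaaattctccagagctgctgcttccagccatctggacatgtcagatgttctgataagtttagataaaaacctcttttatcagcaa

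The Bcl6 window above held 3 matches to TTCNNNGAA and 1 to TAACNG, and the window before the outer Bcl6 start held 1 match to TTCNNNGAA. Fas held 1. No such match lay in the windows of S1pr2, Gcsam, Rgs13 or Mef2b. The core occurs in 7.02% of all 32851 windows of this length in the table. The MEF2 core, found in 3.2% of all windows, was in none of the 7. The octamer was found once, in the Mef2b window inside that gene's model, against 1.6% of all windows. TAACNG, found in 19.8% of all windows, occurred in the inner Bcl6 window and in those of S1pr2 and Gcsam. The window of Rgs13 held none of these letters and was the poorest in G and C, at 36.0%, where the others lay between 51.6% and 59.2%. These matches are letters in a window, not sites of binding.

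No germinal centre gene differed between the genotypes beyond the spread between libraries. None of the 8 passed edgeR's test (adjusted p = 1 for each), where 6 of all 16089 genes, or 0.0373%, did. None had an unadjusted p under 0.05, which 4.98% of all genes had. DESeq2 also called none of the 8, against 0.377% of all genes. The groups overlapped in all 8 genes, and did not overlap in 5.91% of all genes. With shares this small, 0 of 8 does not set these genes apart from the rest. The fitted level was lower in Fpr2KO for 7 of the 8, with a median log2 fold change of -0.19, beside 51.4% of all genes and a median of -0.005.

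**Figure D1:**
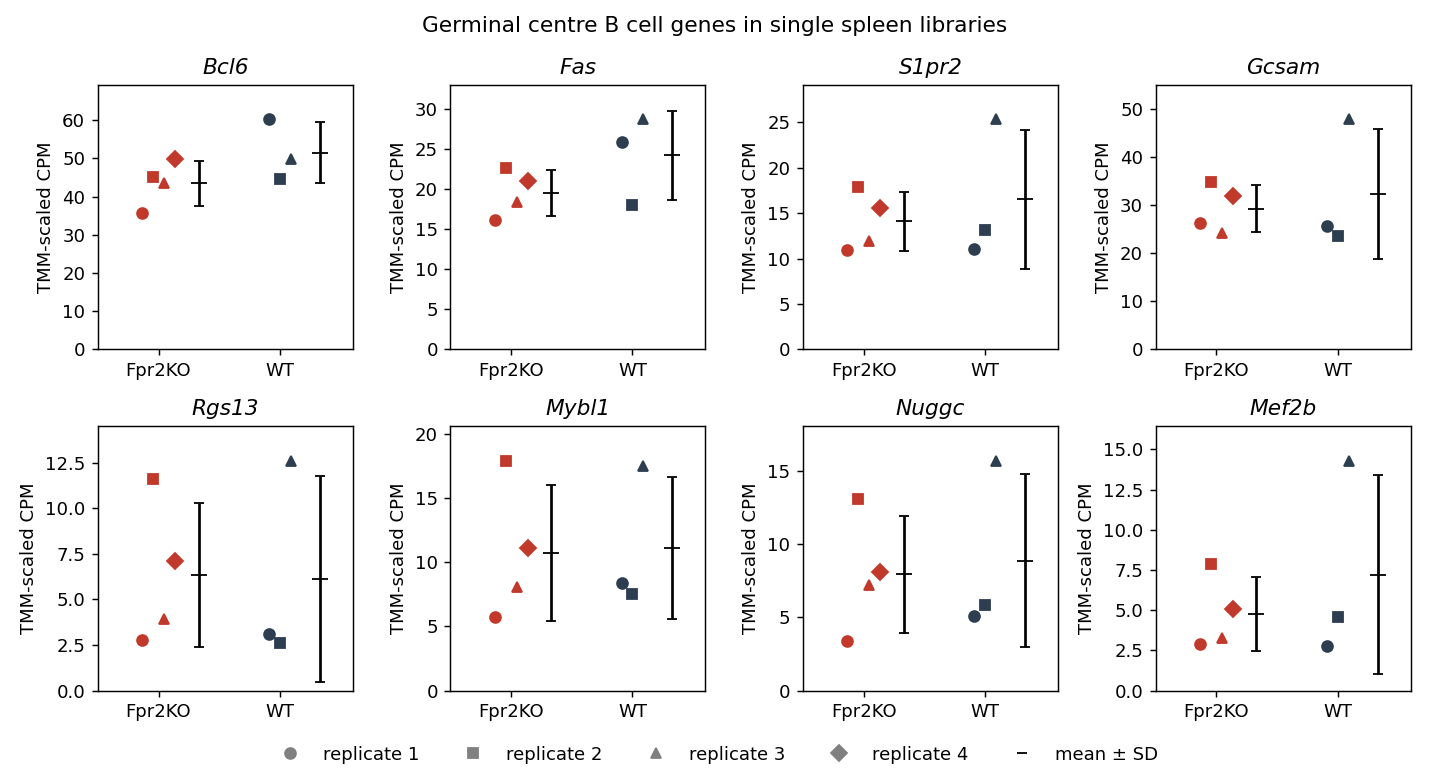
Level of each of the 8 germinal centre genes in TMM-scaled CPM (y axis, from 0) in the 4 Fpr2KO libraries (red, left) and the 3 WT libraries (dark, right), with the replicate number as the symbol and the mean ± SD beside each group. WT replicate 3 is the highest library for 6 of the 8 genes, and the groups overlap in every panel.

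Bcl6, the repressor gene on the minus strand at chr16:23965052-23988852 (GRCm38, as all gene positions here), was the most abundant member in CPM. It had 35.6, 45.1, 43.5 and 49.8 CPM in Fpr2KO replicates 1 to 4, against 60.2, 44.6 and 49.8 CPM in WT replicates 1 to 3. The highest library was thus WT replicate 1, the lowest Fpr2KO replicate 1, and the other 5 lay between 43.5 and 49.8 CPM. The means were 43.5 ± 5.92 CPM in Fpr2KO and 51.5 ± 7.93 CPM in WT (SD, n = 4 and n = 3). The log2 fold change was -0.24 (95% interval -0.54 to 0.05; edgeR adjusted p = 1, unadjusted 0.0976).

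Mef2b (chr8:70139711-70167488, plus strand), which acts upstream of Bcl6, varied far more. Its levels were 2.88, 7.89, 3.26 and 5.06 CPM in Fpr2KO, against 2.75, 4.59 and 14.3 CPM in WT. WT replicate 3 stood above every other library, and WT replicate 1 was the lowest of all 7. The log2 fold change of -0.59 had a 95% interval from -2.12 to 0.93 (edgeR adjusted p = 1). Mef2b shares 62 exon bases, 4.42% of its own, with Borcs8, a gene of lysosome positioning on the same strand. Borcs8 had 18.7 to 22.5 CPM in Fpr2KO and 18.9 to 23.9 CPM in WT, and its highest library was WT replicate 2.

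Mybl1 (chr1:9667415-9700209, minus strand) encodes A-MYB, a transcription factor of germinal centre B cells and of male germ cells. It had 5.77, 17.9, 8.06 and 11.1 CPM in Fpr2KO, against 8.38, 7.54 and 17.5 CPM in WT. Fpr2KO replicate 2 and WT replicate 3 were close to each other at the top, with every other library well below. The group means were 10.7 ± 5.25 CPM in Fpr2KO and 11.1 ± 5.51 CPM in WT (SD, n = 4 and n = 3), and the log2 fold change was -0.06 (95% interval -1.17 to 1.06; edgeR adjusted p = 1). Its relatives did not share this order. Myb, the progenitor cell member of the family, had 27.9 to 39.6 CPM in Fpr2KO and 28.7 to 39.9 CPM in WT, and Mybl2, the member of dividing cells, was highest in Fpr2KO replicate 1 (34.1 CPM) and lowest in Fpr2KO replicate 2 (13.8 CPM).

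S1pr2 (chr9:20962361-20976781, minus strand) encodes the receptor that couples to the G protein subunit encoded by Gna13 and confines the cells to the follicle centre. It had 10.9, 17.9, 11.9 and 15.6 CPM in Fpr2KO, against 11.1, 13.1 and 25.3 CPM in WT. The highest library was again WT replicate 3, followed by Fpr2KO replicates 2 and 4. Its log2 fold change was -0.23 (95% interval -0.95 to 0.49; edgeR adjusted p = 1). S1pr1, the receptor that draws lymphocytes out of the follicle towards blood, stayed within 205 to 243 CPM in Fpr2KO and 190 to 214 CPM in WT. The signalling partners were also even across libraries: Gna13 had 128 to 140 CPM in Fpr2KO and 132 to 153 CPM in WT, and the exchange factor gene Arhgef1 276 to 324 CPM in Fpr2KO and 295 to 326 CPM in WT. S1pr1, Gna13 and Arhgef1 were chosen after their values were seen.

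Rgs13 (chr1:144138654-144177372, minus strand), which shortens chemokine receptor signals by speeding up GTP hydrolysis, had the widest interval. Its levels were 2.77, 11.6, 3.91 and 7.09 CPM in Fpr2KO, against 3.08, 2.62 and 12.6 CPM in WT. The 7 libraries thus split into high values in WT replicate 3 and Fpr2KO replicate 2, an intermediate one in Fpr2KO replicate 4, and low values elsewhere, with both genotypes at the top and at the bottom. Counting error does not span this gap: the lowest library held 40 reads (95% exact Poisson interval 28.6 to 54.5) and WT replicate 3 held 204 (177 to 234). Such intervals cover counting error only. The means were 6.34 ± 3.95 CPM in Fpr2KO and 6.09 ± 5.61 CPM in WT (SD, n = 4 and n = 3), and the log2 fold change of 0.06 had an interval from -1.77 to 1.89 (edgeR adjusted p = 1).

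Gcsam (chr16:45610380-45622867, plus strand), an adaptor that acts on B cell receptor signals and cell movement, had 26.3, 34.7, 24.2 and 31.9 CPM in Fpr2KO, against 25.6, 23.5 and 47.8 CPM in WT. WT replicate 3 was high and the other WT libraries lay near the lower Fpr2KO ones. The log2 fold change was -0.14 (95% interval -0.76 to 0.48; edgeR adjusted p = 1). Nuggc (chr14:65598546-65648531, plus strand), which encodes a nuclear GTPase of germinal centre B cells, had 3.36, 13.1, 7.23 and 8.08 CPM in Fpr2KO, against 5.09, 5.83 and 15.7 CPM in WT. Here too WT replicate 3 was highest and Fpr2KO replicate 2 next, and Fpr2KO replicate 1 was the lowest. Its log2 fold change was -0.16 (95% interval -1.53 to 1.21; edgeR adjusted p = 1).

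Fas (chr19:34290666-34327772, plus strand), the death receptor gene, had 16.1, 22.7, 18.4 and 21.0 CPM in Fpr2KO, against 25.9, 18.0 and 28.7 CPM in WT. A pair of WT libraries lay above all Fpr2KO libraries, and WT replicate 2 lay below all but Fpr2KO replicate 1. The means were 19.6 ± 2.90 CPM in Fpr2KO and 24.2 ± 5.56 CPM in WT (SD, n = 4 and n = 3). The log2 fold change was -0.30 (95% interval -0.69 to 0.08; edgeR adjusted p = 1, unadjusted 0.111). Fasl, the ligand gene, stayed between 3.79 and 4.69 CPM in Fpr2KO and between 4.39 and 4.76 CPM in WT, and was chosen after its values were seen.

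**Figure D2:**
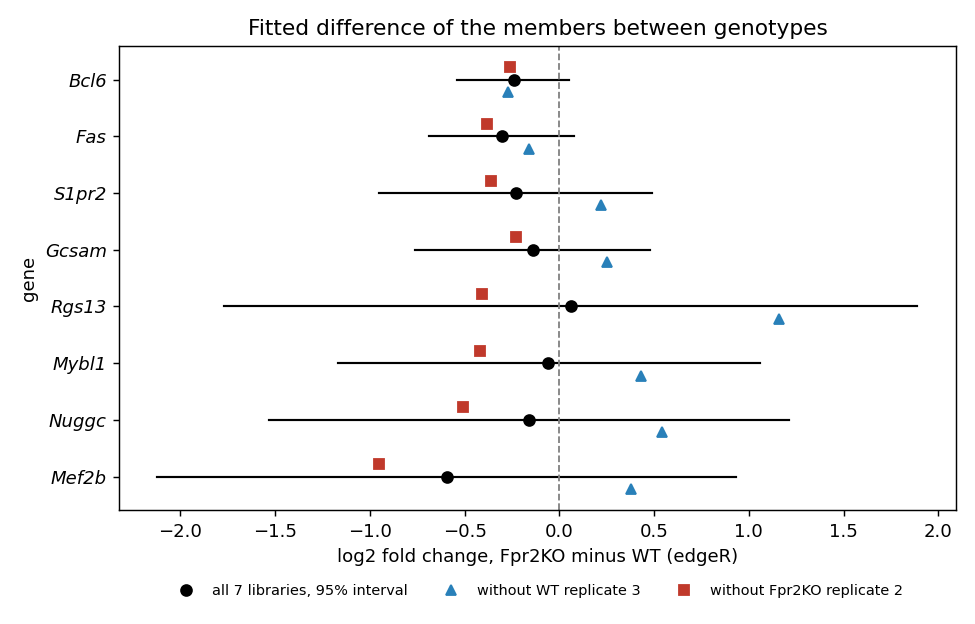
Fitted log2 fold change of each gene, Fpr2KO minus WT (x axis), with its 95% interval from all 7 libraries (black), and the fitted value without WT replicate 3 (blue triangle) or without Fpr2KO replicate 2 (red square). All 8 intervals include 0, and 6 of the 8 triangles lie above 0.

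The direction of the fit depended on single libraries, most of all on WT replicate 3. Without WT replicate 3, only Bcl6 and Fas, 2 of the 8, had a lower fitted level in Fpr2KO, and the median log2 fold change of the 8 was 0.32. Without Fpr2KO replicate 2 it was -0.40, with all 8 lower. In these fits Rgs13 was at 1.16 and -0.41 and Nuggc at 0.54 and -0.51, and no gene passed in either (smallest edgeR adjusted p of a member over all alternatives 0.860). Leaving out Fpr2KO replicate 1 left 5 of the 8 lower, and leaving out Fpr2KO replicate 3 left 6. Bcl6 (at most -0.12) and Fas (at most -0.16) were lower in all alternatives, without passing. The widest of the 8 intervals, that of Rgs13, spans more than a 3-fold difference in either direction, and the narrowest, that of Bcl6, less than a 1.5-fold one.

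Levels between genes were compared per kilobase of exon, on the scale of CPM per kb averaged over the 7 libraries. Fas was at 10.4 ± 2.20, Gcsam at 8.93 ± 2.52 and Bcl6 at 7 ± 1.13 (SD over libraries). Mef2b followed at 4.14 ± 2.94, Rgs13 at 3.76 ± 2.58, Nuggc at 2.94 ± 1.57, Mybl1 at 2.01 ± 0.907 and S1pr2 at 1.90 ± 0.648. Each of the first 3 exceeded the next gene in 6 of 7 libraries. Mef2b exceeded Rgs13 in 4 of 7, Rgs13 exceeded Nuggc in 5 of 7, and Mybl1 exceeded S1pr2 in 4 of 7. The neighbours in these last 3 pairs could not be ranked. Each length includes all annotated exons, 7971 bases for S1pr2, which lowers a gene's value per kb if only a short transcript is made.

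Most of the genes shared an order of libraries that did not follow genotype. Bcl6 and Fas departed from it. WT replicate 1 was among the 3 highest libraries for these 2 genes only, at 60.2 CPM for Bcl6 and 25.9 CPM for Fas. WT replicate 3 was among the 3 highest libraries for 8 of 8 genes, Fpr2KO replicate 2 for 7 and Fpr2KO replicate 4 for 7. Fpr2KO replicate 1 was the lowest library for 5 of 8, and Fpr2KO replicates 1 and 3 and WT replicate 2 were never among the 3 highest. The mean centred log2 CPM of the 8 genes was -0.61, 0.51, -0.27 and 0.13 in Fpr2KO replicates 1 to 4, and -0.28, -0.32 and 0.83 in WT replicates 1 to 3. Highest and lowest library differed 5.20-fold for Mef2b, 4.79-fold for Rgs13, 4.68-fold for Nuggc and 3.10-fold for Mybl1, but only 1.69-fold for Bcl6 and 1.78-fold for Fas. Among the 11382 tested genes whose mean was no lower than that of the least abundant member, 5.81 CPM, the median range was 1.35-fold. A range as wide as that of Mef2b was seen in 1.78% of them, and one as wide as that of Bcl6 in 17.8%.

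**Figure D3:**
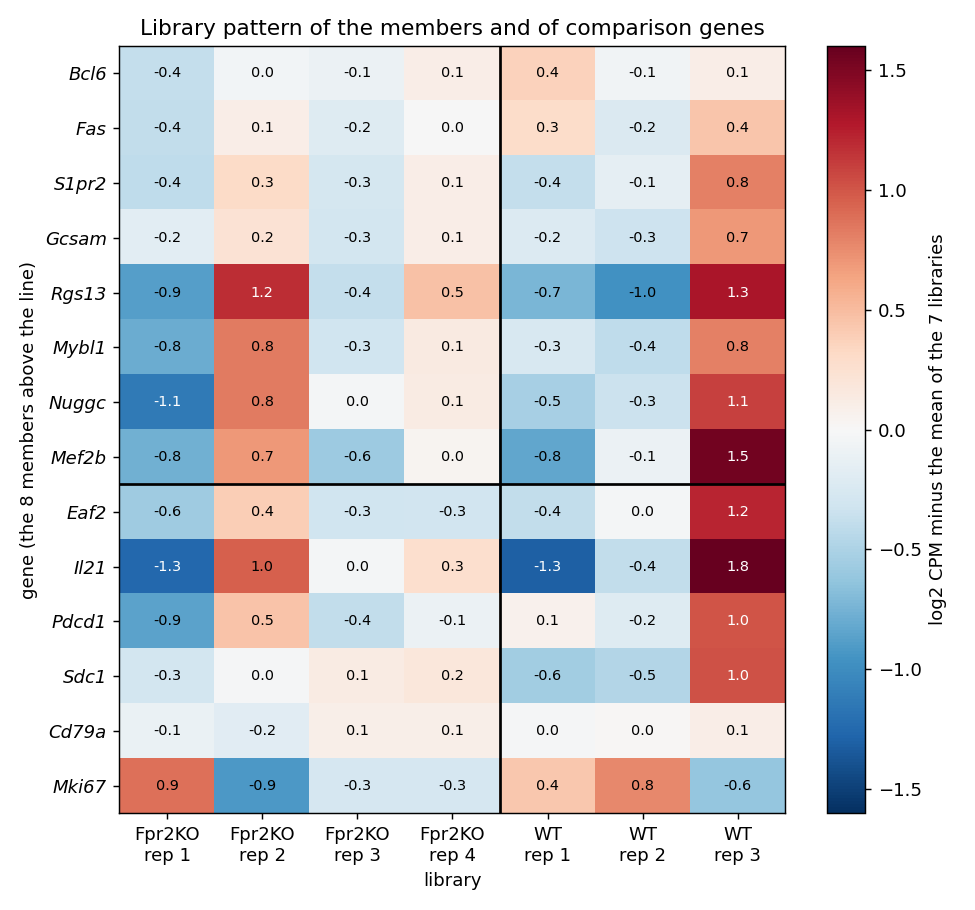
Log2 CPM of the 8 genes (above the line) and of 6 comparison genes (below it), each minus its mean over the 7 libraries, in Fpr2KO (left) and WT libraries (right), with red above and blue below the mean. WT replicate 3 and Fpr2KO replicate 2 are red for S1pr2, Gcsam, Rgs13, Mybl1, Nuggc, Mef2b and Il21, while the B cell gene Cd79a is pale and Mki67 runs the other way.

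Genes of the machinery of hypermutation and class switching, which mutates and recombines antibody genes in these cells, showed no shared direction. Of 15 tested, 8 had higher and 7 lower fitted levels, the median being 0.04 on the log2 scale, and 0 were called by edgeR. Trp53bp1, a double strand break repair gene, had 39.5 to 46.1 CPM in Fpr2KO and 40.6 to 60.7 CPM in WT, and did not pass edgeR's test (log2 fold change -0.22, adjusted p = 1). Xrcc4, an end joining gene, had 14.4 to 17.7 CPM in Fpr2KO and 13.3 to 15.3 CPM in WT, and did not pass either (0.17, adjusted p = 1).

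By the same measure as the rule for alike patterns, the root mean square difference from the members' mean centred log2 CPM over 7 libraries, Bhlha15 was the closest gene outside the members, at 0.064. Bhlha15 encodes a transcription factor of secretory cells, among them plasma cells and pancreatic acinar cells. It had 4.42, 9.66, 5.98 and 7.66 CPM in Fpr2KO, against 5.36, 5.37 and 13.5 CPM in WT, so its lowest library was the one with the most acinar transcripts. Next were Tnfrsf8 (0.162), which encodes the activation receptor CD30, Rassf6 (0.185), Dusp14 (0.189), a phosphatase gene, Ankrd55 (0.195), Pdcd1 (0.201), the PD-1 gene of follicular helper T cells, Bcat1 (0.214), an enzyme gene of branched-chain amino acids, and Kcnc1 (0.214), a potassium channel gene. Among the members S1pr2 (0.135) and Mybl1 (0.144) lay nearest to their own mean, and Bcl6 (0.45) and Rgs13 (0.442) farthest. The measure counts the size of the swings between libraries as well as their order. The 8 genes outside the members were picked by this pattern and none passed edgeR's test (adjusted p = 1 for each). Without WT replicate 3 the fit turned to above 0 for Bhlha15 (0.37), Tnfrsf8 (0.39), Rassf6 (0.67), Dusp14 (0.31), Ankrd55 (0.11) and Bcat1 (0.47).

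Genes of follicular helper T cells, the partners that supply CD40 ligand and interleukin 21, shared most of the members' library order on average. Their mean centred log2 CPM was -0.39, 0.29, -0.06 and 0 in Fpr2KO replicates 1 to 4. In WT replicates 1 to 3 it was -0.18, -0.09 and 0.43. Single genes differed in their order. WT replicate 3 was highest for 5 of 12, Fpr2KO replicate 2 for 3, WT replicate 1 for 3 and WT replicate 2 for 1, and Fpr2KO replicate 2 was among the 3 highest for 10. The summed level, in which abundant genes weigh most, was 725, 894, 822 and 790 CPM in Fpr2KO replicates 1 to 4. In WT replicates 1 to 3 it was 945, 892 and 866 CPM. The sum was thus highest in WT replicate 1, where Btla had 382 CPM and Cxcr5 230 CPM. Of 13 listed, 12 were tested, with 4 higher and 8 lower fitted levels, a median log2 fold change of -0.10 and 0 called. Il21 had 0.765, 3.54, 1.78 and 2.19 CPM in Fpr2KO, against 0.737, 1.38 and 6.15 CPM in WT with the same 3 libraries on top as for Rgs13. Its log2 fold change of -0.42 (SE 0.78) was 0.97 without WT replicate 3. Pdcd1 had 5.12, 12.7, 7.05 and 8.66 CPM in Fpr2KO, against 9.72, 8 and 18.5 CPM in WT. Btla, an inhibitory receptor gene that B cells also make (log2 fold change -0.28, edgeR adjusted p = 0.945), Tox2, a transcription factor gene (-0.42), and Cxcr5, the follicle homing receptor gene (-0.17), had the smallest p and did not pass.

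For 12 of 13 genes of follicular dendritic cells and their niche the fit was lower in Fpr2KO (median -0.06), and 0 were called. Vcam1 of this list is in the macrophage list too, so the list does not measure follicular dendritic cells alone. Prnp, the prion protein gene (-0.20), Fcgr2b, an inhibitory Fc receptor gene (-0.13), and Ltbr, the lymphotoxin receptor gene (-0.11), had the smallest p, each with an edgeR adjusted p of 1. Coch, an extracellular protein gene of follicular dendritic cells, had 949 to 1250 CPM in Fpr2KO and 1070 to 1150 CPM in WT, and Cxcl13, the chemokine that draws B cells into follicles, 180 to 240 CPM in Fpr2KO and 193 to 213 CPM in WT. Across libraries these genes ranged from 1.21-fold for Fcer2a, a low affinity IgE receptor gene, to 1.55-fold for Cr2, a complement receptor gene, both chosen after their values were seen. General B cell genes were even across libraries. The summed level of 14 of them was 4120 to 4650 CPM in Fpr2KO and 4330 to 4440 CPM in WT, with 7 higher and 7 lower fitted levels and 0 called. Blnk, an adaptor gene (-0.19), and Ralgps2 (0.14) had the smallest p among them and did not pass.

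**Figure D4:**
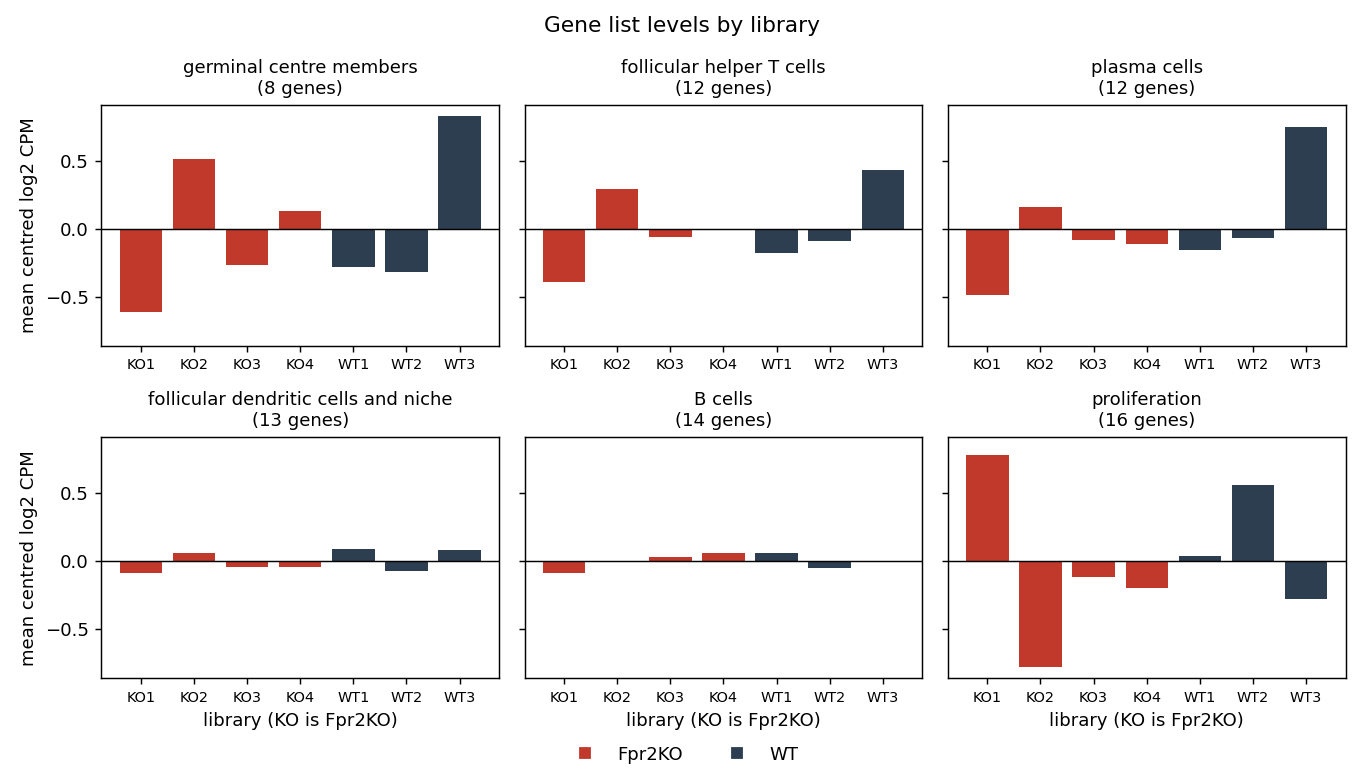
Mean centred log2 CPM (y axis) of the tested genes of 6 lists in each library, Fpr2KO (red) left of WT (dark). The germinal centre, follicular helper T cell and plasma cell bars are highest in WT replicate 3 and lowest in Fpr2KO replicate 1, the B cell bars stay between -0.09 and 0.06, and the proliferation bars are highest in Fpr2KO replicate 1 (0.78) and lowest in Fpr2KO replicate 2 (-0.78).

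On average, plasma cell and T cell genes were, like the members, lowest in Fpr2KO replicate 1 and highest in Fpr2KO replicate 2 and WT replicate 3, while proliferation and erythroid genes were lowest in those 2 libraries. The part of these lists in the members' levels was not tested. Plasma cell genes, 12 in number with all 12 lower in the fit, a median of -0.33 and 0 called, summed to 2310, 4140, 3480 and 2670 CPM in Fpr2KO and to 2820, 2820 and 5970 CPM in WT. Creld2 (-0.58), Prdm1 (-0.32) and Fkbp11 (-0.67) had the smallest p there and did not pass. The general T cell genes had a mean centred log2 CPM of -0.31, 0.26, 0.07 and -0.01 in Fpr2KO replicates 1 to 4, against -0.05, -0.13 and 0.16 in WT replicates 1 to 3. Fpr2KO replicate 2 was highest for 10 of 13, and Fpr2KO replicate 1 was among the 3 highest for 0 of 13. Proliferation genes, 15 of 16 lower with a median of -0.12 and 0 called, ran against the members: Fpr2KO replicate 1 was highest for 16 of 16. Erythroid genes, 11 of 12 lower with a median of -0.32 and 0 called, summed to 52000 CPM in Fpr2KO replicate 1 and 10100 CPM in Fpr2KO replicate 2, and to 92400 CPM in WT replicate 2 and 15000 CPM in WT replicate 3, so they too were low where the members were high. Mki67 (-0.29), Cdc20 (-0.18) and Aurka (-0.19) of the first list and Hba-a1 (-0.98), Hbb-bs (-0.93) and Alas2 (-0.94) of the second did not pass (edgeR adjusted p = 1 for each). Mki67 was at 0.01 without WT replicate 2 and Aurka at 0.02 without Fpr2KO replicate 2.

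Of 15 transcriptional regulators of germinal centre B cells, 8 were higher and 7 lower in the fit with a median of 0.02, and 0 were called. Of these, 4 of 15 had an unadjusted p under 0.05, beside 4.98% of all genes, and 3 of 15 had groups that did not overlap, beside 5.91% of all genes. Pou2af1, the B cell coactivator of octamer factors, had 271, 317, 286 and 302 CPM in Fpr2KO, against 376, 334 and 437 CPM in WT. Its groups did not overlap, yet the difference of -0.38 on the log2 scale had an SE of 0.10 and an edgeR adjusted p of 0.613. Myc (-0.22, edgeR adjusted p = 0.916) and Hhex (0.20, edgeR adjusted p = 0.945), both transcription factor genes, had separate groups too without passing. Bach2, a repressor gene that holds back plasma cell formation, had 45.2, 59.7, 66.1 and 57.5 CPM in Fpr2KO, against 48.9, 33.6 and 48.9 CPM in WT. Its groups overlapped and it did not pass (log2 fold change 0.38, edgeR adjusted p = 0.988), and it was chosen after its values were seen.

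Of 14 genes reported as repressed by BCL6, 9 were lower and 5 higher with a median of -0.10 and 0 called. Cdkn1a, the cell cycle inhibitor gene p21, had 6.71, 8.48, 8.77 and 8.66 CPM in Fpr2KO, against 13.5, 8.06 and 12.2 CPM in WT (log2 fold change -0.47, edgeR adjusted p = 0.978). Cd69 (-0.36), an activation receptor gene, and Prdm1 (-0.32), the plasma cell switch, did not pass either. In the death pathway of FAS, 13 genes had 6 higher and 7 lower fitted levels, a median of -0.06 and 0 called. Bcl2l11, which encodes the death inducer BIM, had 40.1, 43.1, 42.5 and 47.1 CPM in Fpr2KO, against 54.7, 58.3 and 50.5 CPM in WT, with no overlap, and did not pass (log2 fold change -0.33, SE 0.09, edgeR adjusted p = 0.613). Bid (-0.17) and Bcl2 (-0.16) did not pass.

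Among 12 further genes of germinal centre B cells, 6 were higher and 6 lower, with a median of 0.00 and 0 called. Eaf2, an elongation factor gene, had 10.9, 21.2, 13.0 and 13.1 CPM in Fpr2KO, against 12.3, 15.9 and 37.7 CPM in WT (log2 fold change -0.59, edgeR adjusted p = 1), and its log2 fold change was 0.05 without WT replicate 3. That library was highest for 8 of these 12. Nt5e (-0.20) and Bcl7a (0.11) did not pass. Of 17 receptors and signalling genes of cell positioning, 4 were higher and 13 lower with a median of -0.07 and 0 called, led by Rgs14 (-0.20), S1pr5 (0.50) and Cxcr5. Of 14 relatives of the members, 7 were higher and 7 lower with a median of -0.01 and 0 called. Bcl6b, the close relative of Bcl6, had 4.18, 4.67, 5.87 and 10.1 CPM in Fpr2KO, against 17.4, 5.70 and 8.25 CPM in WT (log2 fold change -0.75, edgeR adjusted p = 1), and like Bcl6 was highest in WT replicate 1. Rgs2 had a log2 fold change of 0.10 with no overlap between groups and did not pass (edgeR adjusted p = 1).

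Lists of other cell types gave 0 calls by edgeR as well. T cell genes had a median log2 fold change of 0.03 (Il7r -0.44, Lef1 0.29, Lck -0.14), NK and cytotoxic cell genes one of 0.09 (Ncr1 0.50, Klrk1 0.32, Klra8 0.45) and macrophage genes one of -0.02 (Siglec1 -0.35, Cd163 0.49, Marco -0.42). Neutrophil genes were lower in the fit for all 14 with a median of -1.03 (S100a9 -1.06, S100a8 -1.03, Ly6g -1.22), and DESeq2 called 5 of them. The 4 tested acinar genes had a median of 3.41 (Prss2 6.06, Ctrl 4.43, Zg16 2.40) and the 4 tested fat cell genes one of -1.41 (Cfd -2.65, Car3 -2.32, Fabp4 -0.50), where Cfd was at 0.09 and Car3 at 0.38 without WT replicate 3. None of the genes in this paragraph passed edgeR's test. An unadjusted p under 0.05 was found for 8 of 14 neutrophil, 4 of 15 regulator, 3 of 10 NK cell, 3 of 12 macrophage and 2 of 13 T cell genes, beside 4.98% of all genes. It was found for 1 of 12 helper T cell, 1 of 14 BCL6 target, 1 of 13 death pathway and 1 of 4 fat cell genes, and for none of the other lists.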

How the data were processed

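Whole spleen RNA was measured in 4 Fpr2KO and 3 WT libraries. The authors deposited raw read counts per Ensembl gene. The submitters' processing notes name FastQC 0.10.1, HTSeq 0.10.0 and the build mm10 (GRCm38), and the labels' protocols name NEBNext Ultra II library preparation. Aligner, annotation release and strand setting are not given in the sources used here, so reads of overlapping genes are uncertain. Symbols, positions and exon lengths came from GENCODE M21 (GRCm38), which matched 52133 of 55414 IDs carrying 99.8% of the counts.

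Counts were fitted with edgeR 4.0.16 in R 4.3.3 (quasi-likelihood F test, robust estimation, TMM scaling, filterByExpr at its defaults). A gene counted as called where its Benjamini-Hochberg adjusted p over all tested genes was under 0.05. Log2 fold changes are Fpr2KO minus WT, and CPM values are TMM-scaled. Log2 CPM used a prior count of 2. The fit was tested on simulated data with known differences planted in 50 genes per size. Recovery was only 16% at 1.5-fold, so most differences that small were missed. It rose to 78% at 2-fold, 98% at 3-fold and 92% at 4-fold. The planted genes were drawn at random from all but the scarcest genes, and each was simulated on its own. The germinal centre genes varied more between libraries than most genes, so these shares do not give the recovery for them. False calls made up 20 of the 162 calls in that test. Alternatives included DESeq2 1.42.0 and limma 3.58.1. A floor of 3 counts in 1 library is 0.156 to 0.201 CPM. The labels number replicates without naming separate animals, so the p-values rest on the spread between samples that may be technical repeats.

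The genes and lists were chosen with earlier results of these data known. Named were the members, Fpr2, up to 3 genes per list with the smallest p, and the 8 genes with at least 1 CPM most like the members' mean. Il21, Pdcd1, Cxcl13, Coch and Cd79a came from the marker list, and other genes, among them Myb, Mybl2 and Borcs8, were chosen after their values were seen. Some genes that the rule names are not reported here.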

Additional observations from a re-analysis of the deposited data

Results flagged for a closer look

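In the 4 Fpr2KO libraries, 2 of 70 genes reported under the rules had 1 library far from the other 3, measured by its gap relative to the range of the group, where chance gives about 1 in 20. Cdkn1a had 6.71 CPM in Fpr2KO replicate 1, against 8.48, 8.77 and 8.66 CPM in the other 3. Marco, a scavenger receptor gene of marginal zone macrophages, had 171 CPM in Fpr2KO replicate 2, against 131, 125 and 131 CPM in replicates 1, 3 and 4. None of the 8 germinal centre genes was among them. Groups of 3 were not examined, so WT replicate 3 was not.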

How the results depend on the processing

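Over 18 alternatives no germinal centre gene was called. Of 144 fitted log2 fold changes of the 8, 132 did not change sign, counting Rgs13 at 0 without Fpr2KO replicate 4. The other 12 came from fits with libraries left out. With 1 library left out, S1pr2 ranged from -0.44 to 0.22, Gcsam from -0.33 to 0.25, Rgs13 from -0.41 to 1.16, Mybl1 from -0.42 to 0.43, Nuggc from -0.51 to 0.54 and Mef2b from -0.98 to 0.38, each highest without WT replicate 3. Rgs13 was also at -0.15 without Fpr2KO replicates 1 and 2. Between 2 and 8 of the 8 were lower, with medians from -0.40 to 0.32, and 5 were lower without Fpr2KO replicate 1. The smallest unadjusted p of Bcl6 was 0.0243 (log2 fold change -0.23), with the B cell list score as a covariate, and that of Fas 0.0125 (-0.48), without WT replicate 2. The causes were not tested. Of the other named genes, 21 of 1092 values turned, nearly all with 1 library left out. The ranges then were -0.86 to 0.97 for Il21, -0.88 to 0.05 for Eaf2, -0.74 to 0.01 for Mki67, -0.54 to 0.02 for Aurka, -3.23 to 0.09 for Cfd, -2.88 to 0.38 for Car3, -0.45 to 0.37 for Bhlha15, -0.58 to 0.39 for Tnfrsf8, -0.32 to 0.67 for Rassf6, -0.42 to 0.31 for Dusp14, -0.70 to 0.11 for Ankrd55, -0.49 to 0.47 for Bcat1 and -0.17 to 0.50 for Kcnc1. Rassf6 was also at 0.02 with limma-voom and 0.07 with the replicate block. Over all genes edgeR called 6, all lower. DESeq2 called 57 (8 higher, 49 lower), among them 5 list genes, all of neutrophils. Without a low count filter edgeR called 21 (2 higher, 19 lower), and with 1 library left out between 5 and 15, with 10 without WT replicate 1 and 15 without WT replicate 3. With the replicate block it called 2, both lower. Same-numbered libraries did not deviate together (correlations across genes of 0.08, -0.43 and -0.07), and those of differently numbered libraries ran from -0.44 to 0.44. With so few libraries this cannot show whether the numbers pair the samples. Depth limits Mef2b and Rgs13 most, with as few as 41 and 40 reads in a library.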
